A study of Caenorhabditis elegans with 3 samples.

Results

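The cathepsin B genes *cpr-1*, *cpr-3*, *cpr-4*, *cpr-5* and *cpr-6* and the aspartyl protease genes *asp-1*, *asp-3*, *asp-4*, *asp-5* and *asp-6* of *Caenorhabditis elegans* were examined in late L4 hermaphrodites, animals of the last larval stage. They were taken by the gene symbol of the array annotation, and all 10 were found among the 19292 genes and unnamed features tested, each with 1 array feature measured on all 3 arrays. On every array, channel 2 held RNA of a late L4 preparation, called prep 1, 2 or 3, and channel 1 held a wild-type (wt) mixed reference RNA. The labels give no genotype for the late L4 animals, no makeup of the mixed reference and no word on whether the preps were separate cultures. The p-values thus cover only the variation among the 3 preps, and this may be technical. The sources used here give no dye assignment, and all 3 arrays carry the 2 RNAs in the same channels, so a dye effect of a single gene and a difference between the RNAs cannot be told apart. All values are log2 ratios of late L4 over the reference, a direction taken as likely from the order in which the descriptions name the RNAs, since the value table does not state it. Without spot intensities, which were not used here, it is unknown how far each signal stood above background.

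Cathepsin B is a cysteine protease of the papain family, and the aspartyl proteases are relatives of pepsin and of the lysosomal enzyme cathepsin D. Both are made as inactive proenzymes that mature at acid pH. In the worm, cysteine and aspartyl proteases of these families break down the proteins of the bacterial diet in the intestinal lumen and recycle cellular protein in lysosomes, including the acidic granules of intestinal cells. Cystatins are small proteins that block papain-type proteases, and proton pumping supplies the acid pH at which both kinds of enzyme work.

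In late L4, *cpr-5* was 9.57-fold higher than in the reference, *cpr-3* was lower by 0.97 log2 units, and the other 8 genes did not pass the test (limma, adjusted p under 0.05). That is 1 gene higher and 1 lower of 10, where 12.0% of all genes tested were higher and 10.8% were lower. The counts of calls are thus near the background. Of the 10 means, 7 lay above 0 and 3 below, with a median of 0.53, where the median over all genes was -0.03. Ratios kept 1 sign over the 3 preps in 6 genes, 4 of them above 0 and 2 below, as they did in 51.2% of all genes.

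*cpr-5* encodes a cathepsin B-like protease. Its log2 ratios were 3.59 on prep 1, 3.53 on prep 2 and 2.65 on prep 3, a mean of 3.26 ± 0.53 (SD, n = 3) with a 95% interval from 2.70 to 3.81 and a limma adjusted p of 4.37e-07. All 3 preps were strongly above 0, prep 3 less so than the others. The mean ranked 103 from the top among 19292 genes, above 99.5% of them, and the gene ranked 88, 70 and 260 on preps 1, 2 and 3; if the ratios ran the other way, it would rank 19190 from the top. Leaving out any 1 prep kept the mean between 3.09 and 3.56.

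*cpr-3*, also a cathepsin B-like gene, measured -0.84 on prep 1, -0.16 on prep 2 and -1.91 on prep 3 (log2 ratios), a mean of -0.97 ± 0.88 (SD, n = 3; limma, adjusted p = 0.029). All 3 preps lay below 0, but prep 2 barely so and prep 3 far below. Without prep 3 the mean was -0.50 (adjusted p = 0.33), and the call was also lost when each array was centred on its median (mean -0.92, adjusted p = 0.065). The call of *cpr-3* therefore depended both on prep 3 and on the use of uncentred values.

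*cpr-1*, known as a gut-specific cysteine protease gene, was the member with the widest spread. Its log2 ratios were -1.44 on prep 1, 0.61 on prep 2 and -0.72 on prep 3, a mean of -0.51 ± 1.04 (SD, n = 3; adjusted p = 0.30). The preps fell on both sides of 0, and the mean moved widely with the preps kept: it was -0.05 without prep 1 (adjusted p = 0.95), -0.41 without prep 3 (0.56) and -1.08 without prep 2, where it passed the test (0.011). *cpr-4*, which encodes a cathepsin B-like protein known to be secreted after irradiation, had ratios of 0.75, 1.08 and -0.18 on preps 1, 2 and 3 and did not pass (mean 0.55 ± 0.66, adjusted p = 0.18). *cpr-6*, a further cathepsin B-like gene, had ratios of 0.15, 0.49 and 0.89, all above 0, and did not pass either (0.51 ± 0.37, adjusted p = 0.17). In *cpr-6* prep 3 was the highest array, whereas in *cpr-4* it was the lowest and the only one below 0.

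None of the 5 aspartyl protease genes passed the test in limma, while 4 of their 5 means lay above 0. In limma 3 genes (*asp-1*, *asp-3* and *asp-5*) had an unadjusted p under 0.05. The share of all genes under that looser cutoff was not counted, but it exceeds the 22.9% called after adjustment. *asp-1*, an aspartyl protease gene expressed in the intestine, came closest, with log2 ratios of 1.04 on prep 1, 1.62 on prep 2 and -0.13 on prep 3 (mean 0.84 ± 0.89, SD, n = 3; limma, adjusted p = 0.057). Preps 1 and 2 were above 0 and prep 3 was below it. The mean was 0.74 without prep 1 (adjusted p = 0.17), 0.45 without prep 2 (0.43) and 1.33 without prep 3, where it passed (0.0089). *asp-5* had ratios of 0.99, 0.86 and -0.05 on preps 1, 2 and 3 (0.60 ± 0.56, adjusted p = 0.12), with prep 3 again the low one. Its relative *asp-6* had ratios of -0.02, -0.20 and -0.80, all below 0, and was the aspartyl protease gene with the lowest mean (-0.34 ± 0.41, adjusted p = 0.38).

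*asp-3* and *asp-4* encode lysosomal aspartyl proteases that are required for the necrotic death of neurons. The ratios of *asp-3* were 0.71, 0.70 and 0.30 on preps 1, 2 and 3 (0.57 ± 0.24, SD, n = 3; limma, adjusted p = 0.11). Those of *asp-4* were 0.57, 0.28 and 0.40, the smallest spread of the 10 genes (0.42 ± 0.15, adjusted p = 0.24). Both genes were above 0 on every array. The 95% interval of *asp-3* ran from 0.06 to 1.08 and that of *asp-4* from -0.09 to 0.92, and neither gene passed after adjustment over all genes.

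**Figure D1:**
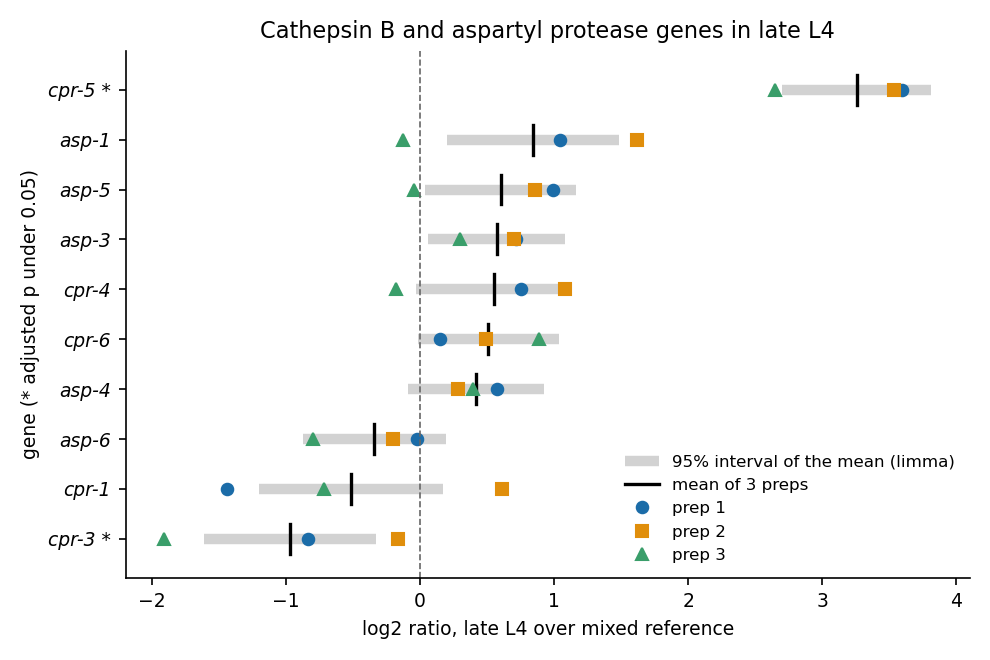
Log2 ratio of late L4 over the mixed reference (horizontal axis) for the 10 protease genes, ordered by mean. Points are preps 1, 2 and 3, black ticks the mean of the 3 preps, grey bars limma's 95% interval of the mean, and asterisks mark genes with an adjusted p under 0.05; *cpr-5* stands alone near 3.26, and the triangle of prep 3 is the lowest point in 7 of the 10 genes.

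In the order of means, *cpr-5* stood 2.42 log2 units above *asp-1*, and the ranges of these 2 genes over the preps did not overlap. From *asp-1* at 0.84 down through *asp-5*, *asp-3*, *cpr-4* and *cpr-6* to *asp-4* at 0.42, every neighbouring pair overlapped. The next gap, of 0.76 log2 units, lay between *asp-4* and *asp-6*, whose ranges did not overlap. *asp-6*, *cpr-1* and *cpr-3* overlapped again at the low end, so that 7 of the 9 neighbouring pairs overlapped (4 of 9 without prep 3). No test of one gene's ratio against another's was run. Among the 8 genes that did not pass, the 95% interval reached highest in *asp-1*, from 0.20 to 1.48, so that a rise of more than 2-fold was not outside it.

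**Figure D2:**
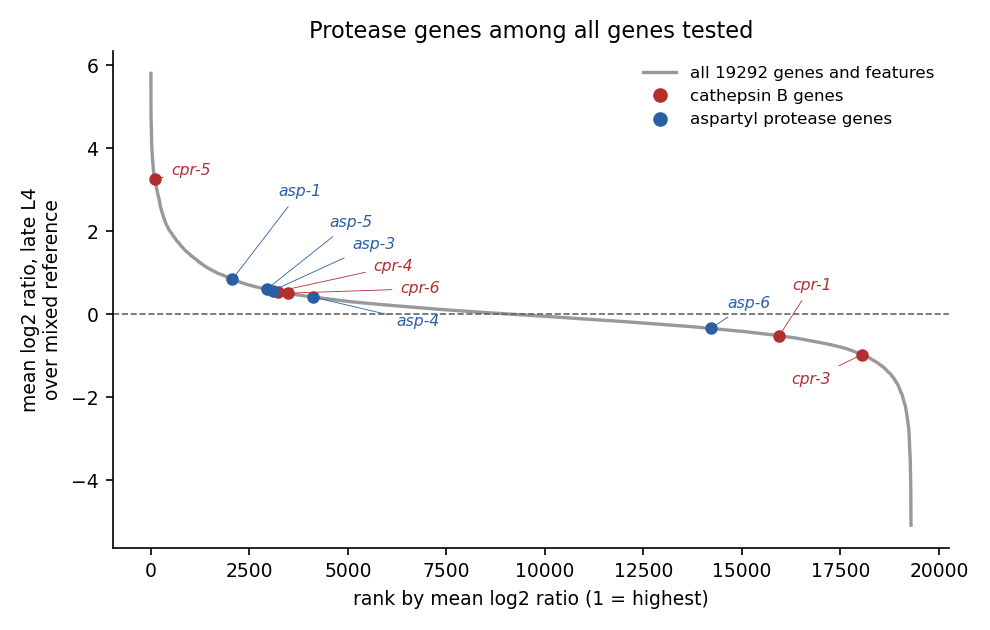
Mean log2 ratio of late L4 over the mixed reference (vertical axis) against rank among the 19292 genes and features tested (horizontal axis, 1 is the highest). Red points are the cathepsin B genes and blue points the aspartyl protease genes; *cpr-5* lies at rank 103, 6 genes lie close together between ranks 2066 (*asp-1*) and 4107 (*asp-4*), and *asp-6*, *cpr-1* and *cpr-3* lie at ranks 14209, 15950 and 18047. With the ratios turned, *cpr-5* would lie at rank 19190, *asp-1* and *asp-4* at 17227 and 15186, and *asp-6*, *cpr-1* and *cpr-3* at 5084, 3343 and 1246.

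Spread between preps had a feature common to many of these genes but not particular to them. Prep 3 gave the lowest ratio in 7 of the 10 genes, prep 1 in 2 and prep 2 in 1, where prep 3 was lowest for 34.3% of all genes; if the ratios ran the other way, the same counts and share would be of highest ratios. On preps 1, 2 and 3 the 10 ratios had medians of 0.64, 0.66 and -0.09, against medians over all genes of 0.01, -0.10 and -0.06. Among lists described below, prep 3 also had the lowest median in the other cpr genes (0.01) and the other asp genes (-0.30). The same held for the vacuolar proton ATPase (0.29) and the intestine markers (1.50). It did not hold for lysosome and gut granule membranes (0.33) or other peptidases (0.32). The SD over the preps ranged from 0.15 for *asp-4* to 1.04 for *cpr-1*, with a median of 0.55 where the median over all genes was 0.36. The array titles carry 3 dates, 1 for each prep, so prep and date cannot be told apart.

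Genes that mark the intestine had a median ratio above the means of 9 of the 10 protease genes, a difference that was not tested. The intestine is a tissue in which proteases of these families are known to act. Of 12 marker genes of the intestine, mostly structural and transport genes, 11 were higher in late L4 and 0 were lower. The other 1, *itx-1*, named after its values were seen, did not pass (0.41 ± 0.63, SD, n = 3, limma adjusted p = 0.33). Regulators of intestinal and lysosomal genes were kept in a separate list of 9, with 0 higher, 1 lower and a median of -0.27. That list holds *elt-2* (0.15 ± 0.27, limma adjusted p = 0.73) and *elt-7* (-0.22 ± 0.37, 0.59), which did not pass and were named after their values were seen. The count of 11 of 12 therefore holds for intestine markers that include no transcription factors. The median was 1.55 over the 12 genes, and 1.77, 1.67 and 1.50 on preps 1, 2 and 3. The largest means belonged to *pgp-1*, a P-glycoprotein transporter gene (2.59 ± 0.71), *act-5*, the actin of the microvilli (2.03 ± 0.42), *ifc-2*, an intermediate filament gene (1.95 ± 0.06), and *nhx-2*, a sodium-proton exchanger gene (1.77 ± 0.13). On all 3 preps *cpr-5* lay above the marker median, by 1.82, 1.86 and 1.15 log2 units, and each of the other 9 protease genes lay below it. In *asp-1* that gap was only -0.06 on prep 2, but -0.73 on prep 1 and -1.63 on prep 3. The source labels of the late L4 RNA name a stage and no tissue. More intestinal cells and more RNA per intestinal cell therefore cannot be told apart, and the arrays hold no information on the tissue of a transcript.

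**Figure D3:**
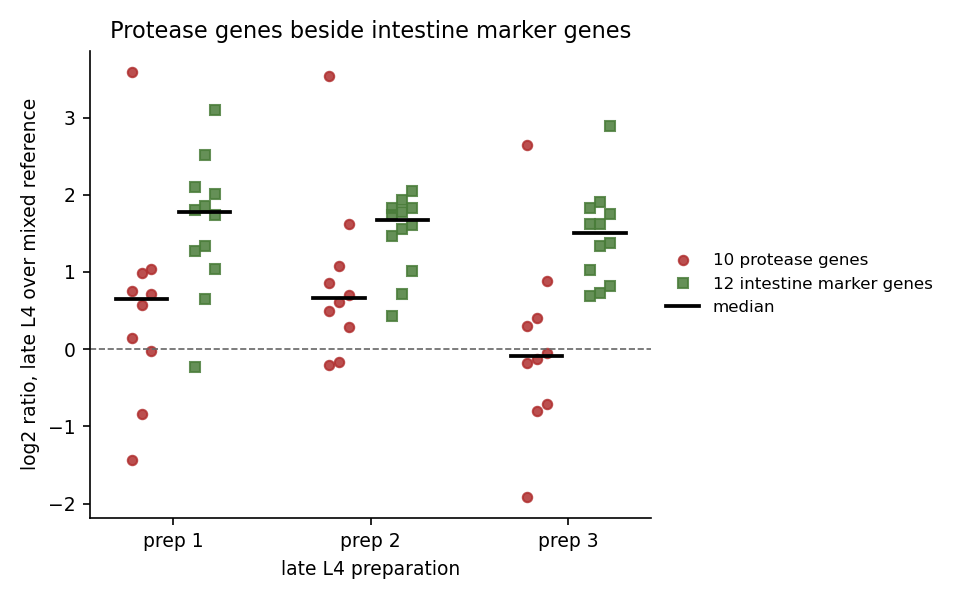
Log2 ratios of late L4 over the mixed reference (vertical axis) on preps 1, 2 and 3. Red circles are the 10 protease genes, green squares 12 intestine marker genes and black lines the medians; the protease median was 0.64, 0.66 and -0.09 and the marker median 1.77, 1.67 and 1.50, and the topmost red circle on each prep is *cpr-5*.

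Other measured genes with a cpr or asp symbol were set beside these genes, so relatives under other names were left out. Of 3 other cpr genes all passed: *cpr-8* was 3.44-fold higher (log2 ratios 2.41, 1.29 and 1.64; mean 1.78 ± 0.57, SD, n = 3; limma, adjusted p = 0.00014), *cpr-9* was higher (0.92, 1.56 and 0.01; 0.83 ± 0.78, adjusted p = 0.0498) and *cpr-2* was 7.22-fold lower (-3.49, -1.91 and -3.16; -2.85 ± 0.83, adjusted p = 4.92e-06). *cpr-9* no longer passed under median centring (adjusted p = 0.062), with scaling added (0.081), or when prep 1 (0.13) or prep 2 (0.42) was left out. In limma its call was also lost with genes measured on at least 2 arrays (0.054), features not averaged (0.051) or named genes only (0.05005). The call did not hold without moderation (0.44) or at an adjusted p under 0.01 either. It held with robust moderation (0.048) and without prep 3 (0.014). Of 8 other asp genes, limma called 0, with means from -0.65 for *asp-8* to 0.41 for *asp-12* and a median of -0.12. In 1 of them, *asp-8*, the unadjusted limma p was under 0.05 (0.040), a cutoff passed by more than 22.9% of all genes. *asp-8* and *asp-12* were named after their values were seen. The means of the 8 measured cpr genes thus ran from -2.85 to 3.26, and those of the 13 measured asp genes from -0.65 to 0.84. The probe type is not given in the sources used here, so signal shared between related genes was not tested.

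Of the 10 genes, 7 lie on chromosome V and 3 (*cpr-6*, *asp-3* and *asp-4*) on the X in the RefSeq gene table of assembly WBcel235, which was used for names and gene order only because the arrays' own build is not named. In that order *cpr-5* is flanked by *W07B8.4* and *cpr-8*. The values of these neighbours were looked up after those of *cpr-5* were known. *cpr-8* was also higher, as given above. *W07B8.4* was lower, at -2.87 on prep 1, -0.11 on prep 2 and -1.64 on prep 3 (-1.54 ± 1.38, SD, n = 3; limma, adjusted p = 0.0071); leaving out prep 1 (-0.88, adjusted p = 0.080) or moderating robustly (adjusted p = 0.082) ended the call. *asp-6*, *asp-12* and *asp-5* are consecutive protein-coding genes, and none of the 3 passed; *asp-12*, between the other two, had ratios of 0.37, 1.01 and -0.16 (0.41 ± 0.59, adjusted p = 0.32). On prep 3 all 3 genes were below 0.

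**Figure D4:**
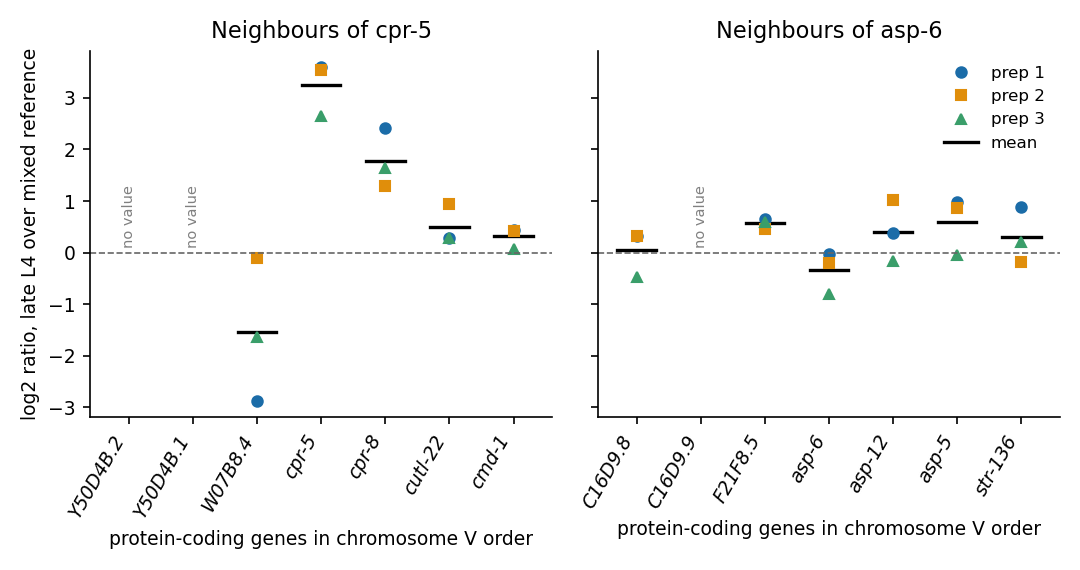
Log2 ratio of late L4 over the mixed reference (vertical axis) for protein-coding genes on either side of *cpr-5* (left) and *asp-6* (right), in their order on chromosome V. Points are preps 1, 2 and 3 and black lines means; *cpr-5* and *cpr-8* are both above 0 on every prep while *W07B8.4* is below 0, and *asp-6*, *asp-12* and *asp-5* stay within about 1 log2 unit of 0.

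Other papain-type enzymes and their inhibitors were taken next. Of 4 further cathepsin genes 1 was lower, *tag-196*, which encodes a cathepsin F-like protease (-1.72 ± 0.30, SD, n = 3; limma, adjusted p = 9.53e-05). *cpl-1*, the cathepsin L gene needed in embryos and for molting, had ratios of -0.26, 1.56 and 0.72 and did not pass (0.68 ± 0.91, adjusted p = 0.13), with a mean of 1.14 without prep 1, which passed (adjusted p = 0.011), of 0.23 without prep 2 (0.75) and of 0.65 without prep 3 (0.29). Of both cystatin genes *cpi-1* was lower (-1.97, -2.37 and -2.39; -2.24 ± 0.24, adjusted p = 6.99e-06) and *cpi-2* did not pass (-0.42 ± 0.72, adjusted p = 0.33). Of 6 calpain genes, cytosolic calcium-dependent cysteine proteases, 1 was higher, *clp-8* (0.87 ± 0.48, adjusted p = 0.022), which no longer passed when prep 1 (0.60, adjusted p = 0.21) or prep 3 (0.94, adjusted p = 0.066) was left out. *tra-3*, the calpain gene of sex determination, averaged -0.57 ± 0.10 without passing (adjusted p = 0.10).

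The rest of the lysosomal and digestive machinery included genes that moved both ways. Of 26 lysosomal hydrolase genes 10 were higher, 7 were lower and 9 did not pass, with a median of 0.18. The higher genes included *ctsa-1.2* and *ctsa-4.2*, which encode serine carboxypeptidases related to cathepsin A (2.65 ± 0.71 and 1.87 ± 0.25, SD, n = 3), the intestinal acid phosphatase gene *pho-1* (2.39 ± 0.43) and the lysosomal mannosidase gene *aman-1* (2.00 ± 0.55). The ctsa genes as a family, looked at after their values were seen, had 6 of 7 members higher and 0 lower. The lower genes, of which the following were likewise named after their values were seen, included the hexosaminidase gene *hex-1* (-1.81 ± 0.13), the acid sphingomyelinase gene *asm-3* (-1.68 ± 0.40) and *nuc-1*, the lysosomal DNase II (-1.34 ± 0.30). Of 16 genes of other peptidases 6 were higher and 1 lower, with a median of 0.31. *pcp-3* and *pcp-2*, prolyl carboxypeptidase-like genes (1.76 ± 0.68 and 1.24 ± 0.35), and the aspartyl aminopeptidase gene *dnpp-1* (1.52 ± 0.09) were higher, and *dpf-6*, of the dipeptidyl peptidase family, was lower (-1.91 ± 0.42).

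Of 18 genes of the vacuolar proton ATPase, the pump that acidifies lysosomes, 6 were higher and 0 lower, with a median of 0.51. The highest was *vha-6*, the subunit of the apical intestinal membrane (1.79 ± 0.53, SD, n = 3), followed by *vha-12* (1.29 ± 0.33), *vha-19* (1.16 ± 0.12) and *vha-8* (0.95 ± 0.46), which no longer passed in limma when prep 1 (adjusted p = 0.083) or prep 2 (adjusted p = 0.068) was left out. Of 23 genes of lysosome and gut granule membranes 6 were higher and 2 lower, with a median of 0.23. *ncr-2*, a Niemann-Pick C1 relative (1.82 ± 0.86), and the CD36-like scavenger receptor genes *scav-4* (1.64 ± 0.55), *scav-1* (1.62 ± 0.34) and *scav-5* (1.30 ± 0.74) were among the higher. Of 9 measured regulators of intestinal and lysosomal genes 0 were higher and 1 was lower, *mxl-3*, a repressor of lysosomal lipase genes (-1.02 ± 0.30, adjusted p = 0.0060), which lost its call without prep 3 (adjusted p = 0.051). *pqm-1*, a zinc finger factor of the intestine, averaged -0.66 ± 0.71 without passing (adjusted p = 0.11), with a mean of -1.07 without prep 2, which passed (adjusted p = 0.012), of -0.53 without prep 1 (0.33) and of -0.39 without prep 3 (0.49).

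**Figure D5:**
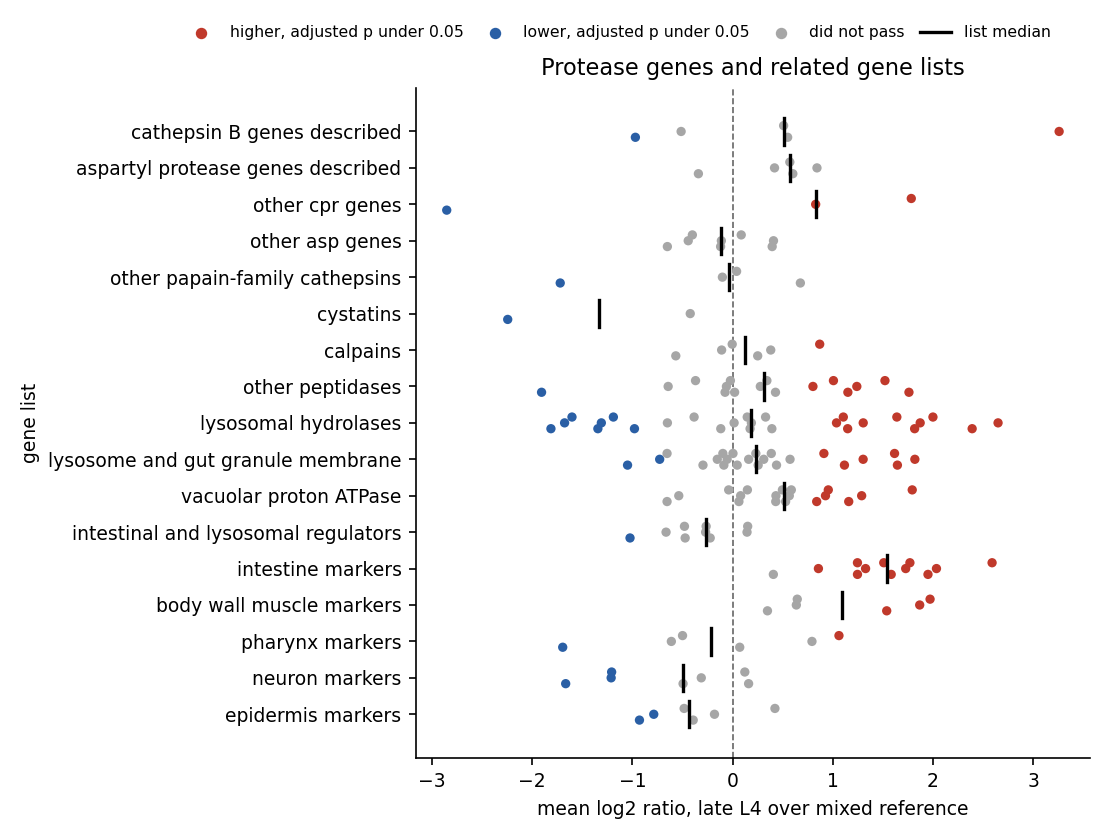
Mean log2 ratio of late L4 over the mixed reference (horizontal axis) for each measured gene of 17 lists (vertical axis). Red points are genes higher and blue points genes lower at an adjusted p under 0.05, grey points did not pass and black ticks are list medians; the intestine markers centre on 1.55, the cathepsin B genes on 0.51 and the aspartyl protease genes on 0.57.

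Markers of other tissues did not share 1 direction. Transcription factors made up most of the epidermis list and none of the intestine markers. Medians of these lists therefore compare unlike kinds of genes. Of 6 body wall muscle genes 3 were higher and 0 lower, with a median of 1.09: *myo-3* (1.97 ± 0.20, SD, n = 3), *unc-15* (1.87 ± 0.07) and *unc-27* (1.54 ± 0.34). Of 6 pharynx genes *tnt-4* was higher (1.06 ± 0.16) and *tnc-2* lower (-1.70 ± 0.65), with a median of -0.21. Of 7 neuron genes 3 were lower, *ric-4* (-1.67 ± 0.21), *rab-3* (-1.21 ± 0.16) and *snt-1* (-1.21 ± 0.62, adjusted p = 0.054 once prep 3 was left out), with a median of -0.49. Of 6 epidermis genes 2 were lower, with a median of -0.44: *elt-3* (-0.93 ± 0.40), lost without prep 3 (adjusted p = 0.14), and *nhr-25* (-0.79 ± 0.20), lost without any 1 prep (adjusted p from 0.070 to 0.15). The part of tissue makeup in the protease ratios was not tested.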

How the data were processed

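The authors deposited 1 log2 value per array and feature for 3 two-colour arrays of 20000 features; 2 to the power of each value was a multiple of 0.001 for 100% of values (within 0.05 of a step), so they are base-2 logarithms of rounded ratios. For dyes, background correction, normalization and scaling, the entry is "not given in the sources used here". Arrays had 19825 to 19903 measured features, medians of -0.10 to 0.01 and SDs of 0.854 to 0.967. The number of arrays limits the precision.

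Of the features, 15656 had 1 gene symbol, 197 several and 4147 none listed; 15569 were updated by Entrez ID with a RefSeq table (WBcel235). The 19736 features with a value on every array were reduced to 1 mean per gene, giving 15112 named genes and 4180 unnamed features, used as deposited. The mean ratio was tested two-sided against 0 with lmFit and eBayes (limma 3.58.1, R 4.3.3; 2 residual and 12.8 prior degrees of freedom), with Benjamini-Hochberg adjustment over all 19292. The reference's own spread is left out. Intervals are limma's moderated 95% intervals.

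The 10 genes and all lists were chosen with earlier results of these data known. Named list genes were the called ones of 1 sign on all arrays with the largest means, up to 4 a list, filled to 2 by lowest p; of the other cpr and asp genes, called ones were named, up to 6 a family, with no filling. Exceptions are marked. In simulated data for 19292 genes with 200 changed, 19% of 2-fold and 99% of 4-fold changes were recovered and 3 of 19092 unchanged genes called. In the data 22.9% of genes were called, so the adjustment set another p cutoff there. The recovered shares therefore do not tell how many 2-fold changes were found in the data. Alternatives were centring, scaling, other variance models, rows and thresholds, and leaving out each prep.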

Additional observations from a re-analysis of the deposited data

How the results depend on the processing

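No paired analysis was possible because there is 1 group of arrays. What dim spots limit was not tested, for want of intensities. All alternatives were planned, and the cause of differences was not tested except where stated. Of 120 values of the 10 genes under alternatives, 111 kept direction and call, 7 lost a call, 2 gained one and 0 changed direction. Alternatives in variance model, rows or thresholds left the means of these genes as they were, so no direction could change there. The stricter thresholds could not add a call either. Only centring, scaling and leaving out a prep could move the means. Without moderation, which leaves 2 degrees of freedom per gene, limma called 0 genes in either direction, among the 10 genes and the related lists too; at an unadjusted p under 0.05 it then had 1874 higher and 2340 lower genes, 2 and 0 of them among the 10. Lower genes among the 10 numbered 0 under median centring, centring with scaling, an adjusted p under 0.01 and a 2-fold minimum, which *cpr-3* missed at 1.96-fold. With 1 prep left out, the 10 genes held 0 to 2 lower and 1 to 2 higher ones, and the other counts were 1337 (without prep 1) to 1776 lower genes, 1368 without prep 3, and 1804 to 2055 higher genes of 19292, and 4 to 8 overlapping neighbouring pairs. Lower genes of all 19292 numbered 2092 as reported, 1217 at an adjusted p under 0.01 and 1168 with a 2-fold minimum, both stricter thresholds. The call of *cpr-5* held in every alternative but the one without moderation (adjusted p = 0.15).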
